A study of Mus musculus with 23 samples.

Results

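Metallothioneins and the proteins that move zinc and copper across liver membranes are described here through 8 genes. They are the metallothionein genes Mt1 and Mt2, the zinc importer genes Slc39a14 and Slc39a4, the exporter genes Slc30a1 and Slc30a10, and the copper genes Cp and Atp7b. They were picked by symbol from the 24440 genes of the deposited count table, all 8 were found, and all 8 passed the filter on low counts that left 12891 genes for testing. The data are RNA-seq of 23 liver libraries from male C57Bl/6 mice that arrived at 6 to 8 weeks of age and then ate normal chow or a diet with 60% of its calories from fat for 15 weeks. Wild type mice gave the groups WT_chow and WT_HFD, IL-4 knockout mice gave IL4KO_chow and IL4KO_HFD, and double knockouts of IL-10 and IL-4 gave dKO_chow and dKO_HFD, where HFD stands for the high-fat diet. Each group holds 4 libraries, except IL4KO_HFD with 3. The livers were perfused, and the labels name no allele for either knockout. The labels name no single mouse, so p-values measure the spread between these samples. The comparisons ask how the diet acts in each genotype and how the genotypes differ on each diet in a model of fatty liver.

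Metallothioneins are small cysteine-rich proteins that bind zinc and copper in the cytosol. Their genes are switched on by free zinc through the sensor MTF1, which binds short DNA sequences called metal response elements, and in liver also by glucocorticoids and by interleukin 6 during the acute phase response. SLC39 (ZIP) proteins carry zinc into the cytosol and SLC30 (ZnT) proteins carry it out, although Slc39a14 also takes up iron and manganese and Slc30a10 exports manganese. The liver ATPase encoded by Atp7b loads copper onto ceruloplasmin, the plasma ferroxidase encoded by Cp, and pumps excess copper into bile.

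Sequencing depth varied between 7.11 M and 30.2 M counts per library (M stands for mega). It was deepest in dKO_chow (16.2 M to 30.2 M), while IL4KO_HFD held 7.79 M to 8.94 M. Il10 went against the label: it had 41 to 67 counts in dKO_chow and 6 to 21 in dKO_HFD against 0 to 4 in all other libraries, so dKO below means the libraries labelled dKO. The labels do not say which part of the gene was deleted, and a count over the whole gene does not check it. Il4 had 0 to 3 counts everywhere. Hepatocyte markers (10 genes) summed to 87801 to 151220 CPM (counts per M counts of the library, scaled by the trimmed mean of M-values, TMM) in every library, so the markers of the labelled tissue were present throughout. The libraries numbered here as dKO_HFD replicate 4 and IL4KO_HFD replicate 2 stood apart from their groups. Neutrophil markers (10 genes) summed to 63.5 CPM in the first against 2.79 to 4.09 CPM in the other dKO_HFD libraries. Cholangiocyte markers (9 genes) summed to 170 CPM in the second against 43.2 and 49.0 CPM in the other IL4KO_HFD libraries. Spp1 is on both the cholangiocyte and the monocyte-derived macrophage list. The macrophage list summed to 313 CPM in IL4KO_HFD replicate 2, against 94.1 and 83.1 CPM in the others. Neutrophil markers were also high in WT_chow replicate 1 (29.2 against 2.72 to 9.54 CPM) and IL4KO_chow replicate 3 (14.9 against 1.72 to 2.60 CPM). In these bulk samples, fewer cells of a type and less RNA per cell cannot be told apart.

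The 8 genes lie on 5 chromosomes of GRCm38.p6, the assembly that mm10 names. Mt2 (chr8:94172618-94173567) and Mt1 (chr8:94178883-94180327) are neighbours with 5315 bases between them, and Atp7b lies on the same chromosome (chr8:21992783-22060074). Slc30a10 (chr1:185454848-185468762) and Slc30a1 (chr1:191906697-191913248) share a chromosome, and Cp (chr3:19956933-20009750), Slc39a14 (chr14:70303467-70351452) and Slc39a4 (chr15:76612383-76618506) lie apart. RefSeq windows of 300 bases, with 250 before a RefSeq start base, were matched for 6 of the 8, namely all but Slc39a14 and Slc39a4. That start base differs from the gene start given above for Mt1, Slc30a1 and Cp. For Mt1 the 250 bases before it are chr8:94178839-94179088, while the gene position starts at 94178883.

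Promoter sequence is shown for Mt2 because it is the member with most matches to the metal response element core, TGCACNC or TGCGCNC on either strand. Its window held 4 matches, against at least 1 match in 25.7% of 32851 RefSeq windows, at least 2 in 7.11% and at least 4 in 0.517%. The 250 bases before the start of Mt2 (chr8:94172368-94172617, plus strand), with the 3 matches that lie there in capitals, read:
Mt2 upstream: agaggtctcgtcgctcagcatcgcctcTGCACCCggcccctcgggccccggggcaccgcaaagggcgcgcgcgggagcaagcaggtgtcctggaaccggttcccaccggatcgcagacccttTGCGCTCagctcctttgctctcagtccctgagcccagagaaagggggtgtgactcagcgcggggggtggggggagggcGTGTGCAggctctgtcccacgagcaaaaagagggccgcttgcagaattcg
Mt1 had 3 matches, printed here with 6 bases on each side, the core in capitals and its coordinates, at bases -23, 2 and 20 from the RefSeq start base (counted as 0):
Mt1, chr8:94179066-94179072: ccgctgTGCACACtggcgc
Mt1, chr8:94179091-94179097: gagctcTGCACTCcgcccg
Mt1, chr8:94179109-94179115: gaaaagTGCGCTCggctct
Slc30a1, another gene known to respond to zinc through MTF1, had 2 matches, both on the reverse strand:
Slc30a1, chr1:191906738-191906744: ggttccGAGTGCAaagcaa
Slc30a1, chr1:191906811-191906817: cgggccGAGCGCAgtcgcc
Slc30a10 had 3 matches, of which 2 overlap on opposite strands, Atp7b had 1 and the 2 windows of Cp had 0. A glucocorticoid receptor-type palindrome, read on both strands, stood once in Mt1 (0.475% of all windows) and in no other member:
Mt1, chr8:94178995-94179007: ctatagGGACATGATGTTCcacacg
The STAT3-type sequence TTCNNNGAA stood in none of the windows of these 6 genes and in 8.3% of all windows. A match describes the letters in a window and is no evidence that a factor binds there.

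The coding sequences of the metallothionein pair are given because their reads can be told apart only where they differ. Both are 186 bases long in GENCODE, with 20 cysteine codons among 61, and the 38 bases at which they differ are in capitals:
Mt1 coding: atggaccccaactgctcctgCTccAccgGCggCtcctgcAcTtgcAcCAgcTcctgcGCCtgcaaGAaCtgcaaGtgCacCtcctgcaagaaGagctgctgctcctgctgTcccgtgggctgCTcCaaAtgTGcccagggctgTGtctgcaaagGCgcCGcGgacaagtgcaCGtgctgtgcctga
Mt2 coding: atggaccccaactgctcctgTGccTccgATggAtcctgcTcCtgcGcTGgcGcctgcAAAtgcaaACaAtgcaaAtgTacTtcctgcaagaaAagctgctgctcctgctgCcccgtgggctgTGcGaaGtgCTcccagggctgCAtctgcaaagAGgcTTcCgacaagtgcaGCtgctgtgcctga
The other 148 bases (79.6%) are the same, and the longest stretch without a difference is 20 bases.

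Of the 8 genes, 7 were called (false discovery rate, FDR, below 0.05) in dKO against WT on chow, 6 higher and 1 lower. In all, 46.3% of tested genes were called there, 24.4% higher and 21.9% lower. In dKO against IL4KO on chow 5 were higher and 1 lower, where 45.2% of tested genes were called, 23% higher and 22.2% lower. The diet effect in dKO had 5 of the 8 lower and 0 higher, with 40% of tested genes called and 20.5% lower. Each test is the two-sided quasi-likelihood test of edgeR, and p-values were adjusted by Benjamini-Hochberg over the 12891 genes. The median log2 fold change of the 8 was 1.12 in dKO against WT on chow and -1.23 in the diet effect in dKO, beside 0.02 and -0.02 over all tested genes. These comparisons share the dKO_chow libraries and are therefore not independent of each other. The 8 members were chosen with earlier results of these data known. Their share of calls beside that of all tested genes is therefore a description and no test of the family.

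Far fewer members were called in the other pairs. The diet effect in WT had 1 lower (19.5% of tested genes called, 9.84% lower) and that in IL4KO had 2 lower (9.08% called, 3.94% lower). On chow, IL4KO differed from WT at 1 member, which was higher (9.61% called, 5.93% higher). On HFD, dKO differed from WT at 1 member, also higher (24.5% called, 12.9% higher). None was called by edgeR in IL4KO against WT on HFD (3.02% called) or in dKO against IL4KO on HFD (2.51% called). In each of those, 1 of the 8 (Slc30a1) had an unadjusted p under 0.05, DESeq2 and limma-voom called 0, and Slc30a1 was called when 1 IL4KO_HFD library was left out (replicate 2 in the first, FDR 0.0411, and replicate 3 in the second, FDR 0.0118).

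**Figure D1:**
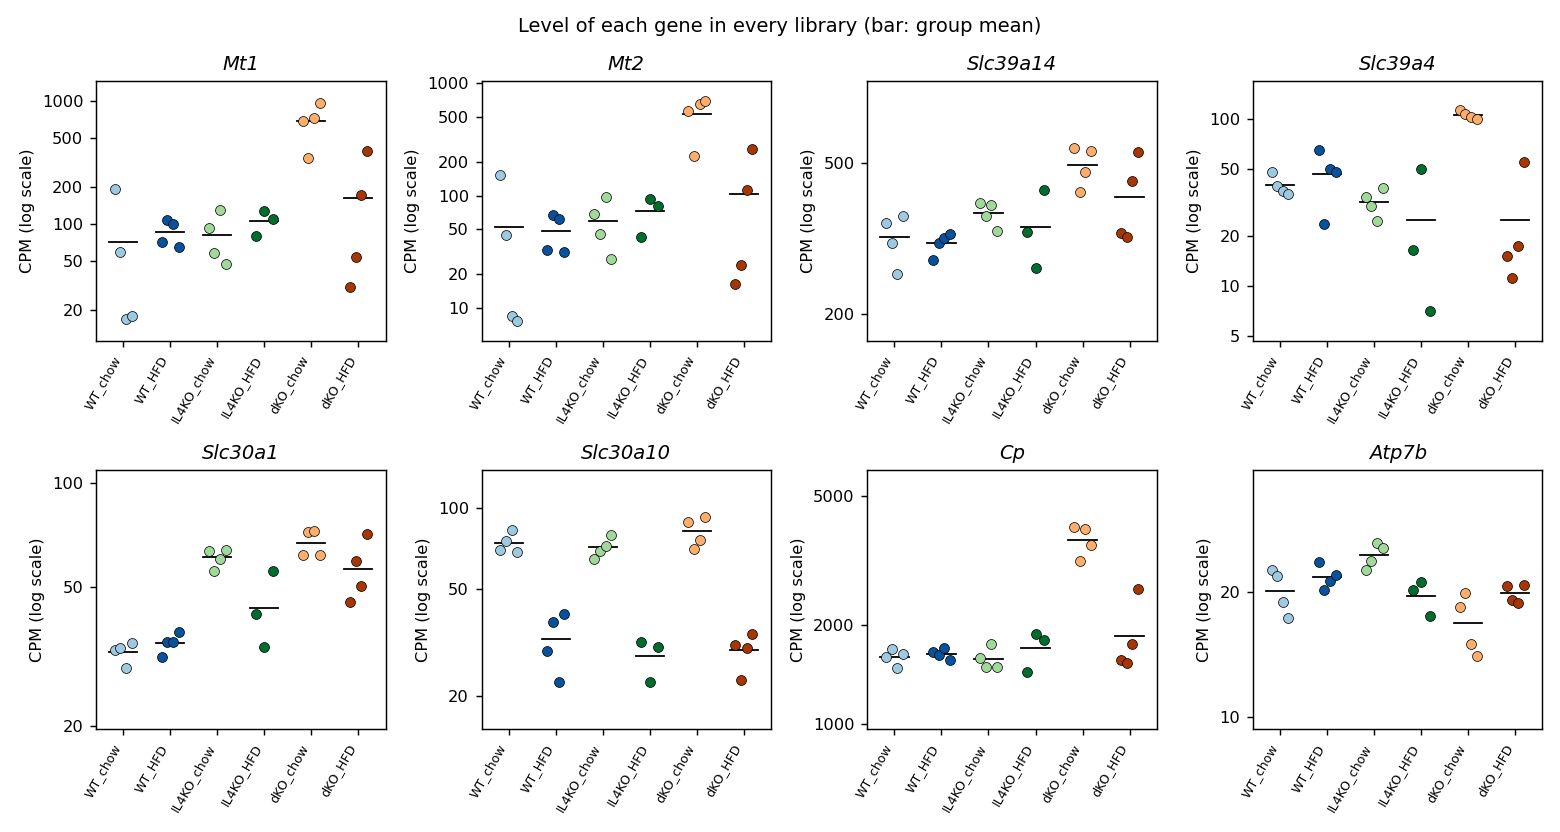
Level of each of the 8 genes in every library, in CPM on a log axis, by group; points are libraries and bars are group means. The dKO_chow points of Mt1, Mt2, Slc39a4 and Cp sit above those of WT_chow and IL4KO_chow, while Slc30a10 is lower on HFD in all 3 genotypes.

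Mt1, which encodes metallothionein 1, was higher in dKO than in both other genotypes on chow. It was at 683, 342, 730 and 967 CPM in dKO_chow, against 192, 59.0, 16.8 and 17.9 CPM in WT_chow and 93.4, 58.0, 129 and 47.2 CPM in IL4KO_chow. The lowest dKO_chow library was above the highest of either other genotype on chow. The difference from WT_chow was 3.25 on the log2 scale (SE 0.796, FDR 0.0031), a 9.52-fold higher level, and that from IL4KO_chow was 3.06 (SE 0.79, FDR 0.0045). WT_chow replicate 1 weighed on the size: without it the log2 fold change against WT_chow was 4.42 (FDR 0.000448). That library and IL4KO_chow replicate 3 had the highest Mt1 and the highest neutrophil marker sum of their groups. So had WT_HFD replicate 2, IL4KO_HFD replicate 2 and dKO_HFD replicate 4. In dKO_chow the library with the highest Mt1 (replicate 4, 967 CPM) had a neutrophil sum of 198 CPM. The library with the lowest Mt1 there (replicate 2, 342 CPM) had a sum of 327 CPM. The part of neutrophils in the values was not tested.

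On the high-fat diet Mt1 was at 30.9, 54.1, 171 and 394 CPM in dKO_HFD. WT_HFD libraries held 71.6, 108, 99.2 and 65.5 CPM, and IL4KO_HFD libraries 79.4, 128 and 110 CPM. The dKO_HFD libraries were therefore spread on both sides of the other HFD groups, and replicate 4, the highest of them, reached above the lowest dKO_chow library. The diet effect in dKO was a fall by 2.07 on the log2 scale (SE 0.755, FDR 0.0372). The call was lost in 8 of 19 alternative settings, with FDR up to 0.107, and without dKO_HFD replicate 4 the fall was 2.98 (a log2 fold change of -2.98, FDR 0.00539). Neither the WT diet effect (0.26, SE 0.74, FDR 0.845) nor the IL4KO diet effect (0.37, SE 0.797, FDR 0.817) passed, and dKO did not differ from WT on HFD past the threshold (0.92, SE 0.739, FDR 0.388).

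Mt2, which encodes metallothionein 2, followed Mt1 library by library. It was at 565, 223, 652 and 693 CPM in dKO_chow, 151, 44.5, 8.51 and 7.70 CPM in WT_chow and 69.1, 45.8, 97.1 and 27.4 CPM in IL4KO_chow. Again no WT_chow or IL4KO_chow library reached the dKO_chow range. The log2 fold change was 3.33 against WT_chow (SE 0.925, FDR 0.00717) and 3.16 against IL4KO_chow (SE 0.919, FDR 0.00984), and without WT_chow replicate 1 the first became 4.69 (FDR 0.00124). With the high-fat diet dKO libraries held 16.3, 24.1, 112 and 259 CPM, WT libraries 33.2, 67.5, 61.7 and 31.7 CPM and IL4KO libraries 43.2, 93.7 and 80.0 CPM. The dKO_HFD values enclosed those of both other groups. The diet effect in dKO was -2.38 (SE 0.883, FDR 0.0403), was lost in 8 of 19 alternative settings with FDR up to 0.109, and was -3.37 without dKO_HFD replicate 4 (FDR 0.00819).

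Mean Mt1 levels were ordered dKO_chow (681 ± 258 CPM, SD, n = 4), dKO_HFD (162 ± 166, n = 4), IL4KO_HFD (106 ± 24.5, n = 3), WT_HFD (86.0 ± 20.6, n = 4), IL4KO_chow (81.9 ± 37.0, n = 4) and WT_chow (71.5 ± 82.9, n = 4). Every neighbouring pair in this order overlapped in its libraries, dKO_chow and dKO_HFD included. For Mt2 the means were 533 ± 214 CPM in dKO_chow and 103 ± 113 CPM in dKO_HFD, and 48.5 to 72.3 CPM in the other groups. Both genes varied far more within groups than most: the pooled SD of log2 CPM within groups was 1.07 for Mt1 and 1.29 for Mt2, above 99.1% and 99.5% of tested genes, whose median was 0.195. In WT_chow the highest library held 11.4 times the Mt1 and 19.6 times the Mt2 level of the lowest, and in dKO_HFD 12.8 and 15.8 times.

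The ratio of Mt2 to Mt1 spanned a far smaller range than the levels. It ran from 0.432 to 0.894 over the 23 libraries, with a median of 0.657, while the sum of both genes ran from 25.4 to 1661 CPM. In log2 CPM centred on the mean of all libraries, the genes differed by 0.25 on average per library. Mt2 was the gene nearest to Mt1 by this measure, and Mt1 the nearest to Mt2, among tested genes without those of predicted or clone-type names. The next were Cpne8 (0.53 from Mt1, 0.71 from Mt2), which encodes a copine, then Irak3 for Mt1 (0.56), an inhibitor of Toll-like receptor signalling, and Dnajc12 for Mt2 (0.73). All these points share libraries and depth, so the likeness is a description. Mt3 and Mt4, the metallothionein genes of brain and stratified epithelium, did not pass the filter on low counts.

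**Figure D2:**
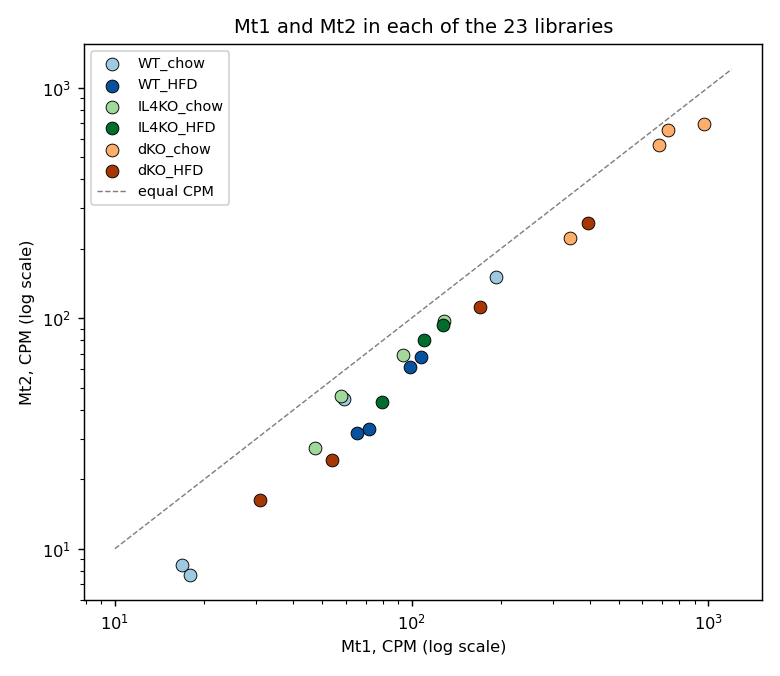
Mt1 (x axis) and Mt2 (y axis) in CPM on log axes, one point per library, coloured by group; the dashed line marks equal CPM. All 23 points lie below the line, with a Mt2 to Mt1 ratio of 0.432 to 0.894, and dKO_HFD replicate 4 lies beside the lowest dKO_chow library.

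Slc39a14 encodes ZIP14, the importer through which hepatocytes take up zinc during inflammation. It was at 548, 421, 473 and 537 CPM in dKO_chow against 349, 309, 256 and 362 CPM in WT_chow and 392, 363, 388 and 331 CPM in IL4KO_chow. The dKO_chow libraries lay above both other groups without overlap. The gene was higher by 0.63 on the log2 scale than in WT_chow (SE 0.155, FDR 0.00217), 1.55-fold. It was higher by 0.43 than in IL4KO_chow (SE 0.155, FDR 0.0292), a call lost when IL4KO_chow replicate 2 or 4, or dKO_chow replicate 1 or 4, was left out (FDR 0.0583 to 0.11). On HFD its levels were 327, 320, 449 and 536 CPM in dKO, 279, 308, 317 and 325 CPM in WT and 328, 264 and 425 CPM in IL4KO. The dKO_HFD range spanned from the upper WT_HFD values into the dKO_chow range. The difference from WT on HFD was 0.41 (SE 0.155, FDR 0.0576), the diet effect in dKO was -0.28 (SE 0.154, FDR 0.157), and both passed under some settings, the first with DESeq2 (FDR 0.0438) and the second without dKO_HFD replicate 4 (-0.43, FDR 0.019). The order of means was dKO_chow (495 ± 59.4 CPM, SD, n = 4), dKO_HFD (408 ± 104), IL4KO_chow (368 ± 28.2), IL4KO_HFD (339 ± 80.8, n = 3), WT_chow (319 ± 47.9) and WT_HFD (307 ± 20.3), and all neighbours in it overlapped.

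Slc39a4 encodes ZIP4, the importer best known for zinc uptake in the gut and for acrodermatitis enteropathica when lost. It was at 113, 107, 102 and 100.3 CPM in dKO_chow, 47.9, 39.8, 37.0 and 35.7 CPM in WT_chow and 34.0, 29.9, 24.3 and 38.4 CPM in IL4KO_chow. The dKO_chow libraries were tightly grouped and stood apart from both other genotypes on chow. The log2 fold change was 1.398 against WT_chow (SE 0.474, FDR 0.0227) and 1.74 against IL4KO_chow (SE 0.486, FDR 0.00757). The call against WT_chow was lost without WT_chow replicate 3 (FDR 0.0558) or 4 (FDR 0.0564).

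The high-fat diet moved Slc39a4 down in dKO. Its level was 15.1, 11.1, 17.3 and 55.4 CPM in dKO_HFD, 65.6, 23.6, 50.2 and 48.0 CPM in WT_HFD and 16.46, 50.5 and 7.02 CPM in IL4KO_HFD. Every dKO_HFD library was below every dKO_chow library, and replicates 1 to 3 were also below all WT_HFD libraries. The diet effect in dKO was -2.12 (SE 0.486, FDR 0.00234), and it was -2.86 without dKO_HFD replicate 4 (FDR 5.94e-05). It was 0.23 in WT (SE 0.476, FDR 0.791) and -0.35 in IL4KO (SE 0.549, FDR 0.742). The difference between dKO and WT in the diet effect, tested directly, was -2.35 (SE 0.676, FDR 0.0199), one of 2 members called in that interaction, both lower, where 25.2% of tested genes were called and 12.6% lower. The difference between dKO and IL4KO in the diet effect did not pass (-1.78, SE 0.721, FDR 0.0803). It passed under some settings, such as without dKO_HFD replicate 4 (-2.53, FDR 0.00454). Against WT on HFD the gene was at -0.95 (SE 0.482, FDR 0.162), and without dKO_HFD replicate 4 it was lower, by 1.70 (a log2 fold change of -1.70, FDR 0.0108). Slc39a4 varied within groups more than 95.7% of tested genes (SD of log2 CPM 0.712), and its means were 106 ± 5.59 CPM in dKO_chow, 46.8 ± 17.4 in WT_HFD, 40.1 ± 5.49 in WT_chow, 31.7 ± 6.02 in IL4KO_chow and 24.7 in both dKO_HFD (SD 20.6) and IL4KO_HFD (SD 22.9, n = 3). All neighbours below dKO_chow overlapped.

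The genes nearest to Slc39a4 over the 23 libraries were H2-Ab1 (0.38 apart on average in centred log2 CPM), H2-Aa (0.39) and Cd74 (0.40), all of the class II antigen presentation of macrophages, dendritic cells and B cells. H2-Ab1 was at 87.2 ± 7.05 CPM in dKO_chow, 21.98 ± 12.3 CPM in dKO_HFD, 31.2 ± 11.5 CPM in WT_chow and 27.5 ± 3.74 CPM in WT_HFD (SD, n = 4 each). For Slc39a14 the nearest were Fn1 (0.11), the fibronectin gene, Rbfox2 (0.12) and Otulin (0.12).

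Slc30a1 encodes ZnT1, the exporter that removes zinc across the plasma membrane. It was the 1 member called higher in both knockouts on chow. It was at 33.1, 33.4, 29.3 and 34.7 CPM in WT_chow, 63.8, 55.7, 60.3 and 64.1 CPM in IL4KO_chow and 61.8, 72.2, 72.6 and 62.1 CPM in dKO_chow. Neither knockout group overlapped WT_chow, and they overlapped each other. The log2 fold change was 0.90 in IL4KO (SE 0.129, FDR 0.000102) and 1.04 in dKO (SE 0.127, FDR 2.87e-06), that is 1.87-fold and 2.06-fold, and all settings that were run kept both calls. dKO and IL4KO differed on chow by 0.14 (95% interval -0.12 to 0.40, FDR 0.376).

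On HFD, Slc30a1 stood at 31.6, 35.0, 34.8 and 37.2 CPM in WT, 41.8, 33.6 and 55.6 CPM in IL4KO and 45.5, 59.4, 50.5 and 71.1 CPM in dKO. The dKO libraries were all above the WT libraries, and the IL4KO libraries lay between and overlapped both. It was higher in dKO than in WT by 0.71 (SE 0.127, FDR 0.000476), under all settings that were run. In IL4KO the difference from WT was 0.33 (SE 0.139, FDR 0.229), and the diet effect was a fall by 0.48 (SE 0.14, FDR 0.0328), with the highest HFD library at 55.6 CPM and the lowest chow library at 55.7 CPM. That call was lost in 6 of 18 alternative settings, and without IL4KO_HFD replicate 2 the value was -0.32 (FDR 0.276). The diet effect was 0.09 in WT (SE 0.129, FDR 0.695) and -0.25 in dKO (SE 0.123, FDR 0.114), the latter passing without dKO_HFD replicate 4 (-0.37, FDR 0.0125). The IL4KO and WT diet effects differed by -0.57 (SE 0.191, FDR 0.272), which did not pass. The order of means was dKO_chow (67.2 ± 6.03 CPM), IL4KO_chow (61.0 ± 3.90), dKO_HFD (56.6 ± 11.2), IL4KO_HFD (43.7 ± 11.1), WT_HFD (34.6 ± 2.31) and WT_chow (32.6 ± 2.30), with overlap between all neighbours. The nearest genes were Pcnt (0.14), Bcor (0.15) and Plec (0.16), which encode pericentrin, a BCL6 corepressor and plectin. Pcnt was at 9.57 ± 0.509 CPM in WT_chow, 17.2 ± 1.298 CPM in IL4KO_chow and 16.4 ± 1.02 CPM in dKO_chow (SD, n = 4 each).

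Slc30a10 encodes ZnT10, which exports manganese from hepatocytes into bile, and it was the member that fell with the diet in every genotype. Chow libraries held 69.9, 75.3, 82.8 and 68.9 CPM in WT, 64.7, 69.6, 72.5 and 79.7 CPM in IL4KO and 88.7, 70.5, 76.0 and 93.0 CPM in dKO. HFD libraries held 29.4, 37.7, 22.5 and 40.2 CPM in WT, 31.7, 22.5 and 30.5 CPM in IL4KO and 30.9, 22.9, 30.2 and 34.1 CPM in dKO. No HFD library of any genotype reached the lowest chow library. The log2 fold change was -1.18 in WT (SE 0.152, FDR 4.19e-05), -1.34 in IL4KO (SE 0.173, FDR 0.00015) and -1.48 in dKO (SE 0.151, FDR 1.25e-06), and all settings kept these calls. No genotype difference passed on either diet, the 6 log2 fold changes lying between -0.21 and 0.20, and the differences between diet effects did not pass (95% intervals -0.64 to 0.31 for IL4KO minus WT and -0.74 to 0.15 for dKO minus WT).

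Its means fell in 2 sets that did not overlap, 71.6 to 82.1 CPM in the chow groups and 28.2 to 32.5 CPM in the HFD groups, and neighbours within a set overlapped. In dKO_HFD replicate 4, which was high in Slc39a4 and the metallothioneins, Slc30a10 was at 34.1 CPM, beside 22.9 to 30.9 CPM in its group. The genes nearest to it were Dtx4 (0.28), Celsr1 (0.29) and Cnp (0.30). Dtx4, a ubiquitin ligase gene of the Notch pathway, went from 18.2 ± 3.02 to 7.90 ± 1.74 CPM in WT (SD, n = 4 each) and from 25.7 ± 1.84 to 9.45 ± 1.88 CPM in dKO.

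**Figure D3:**
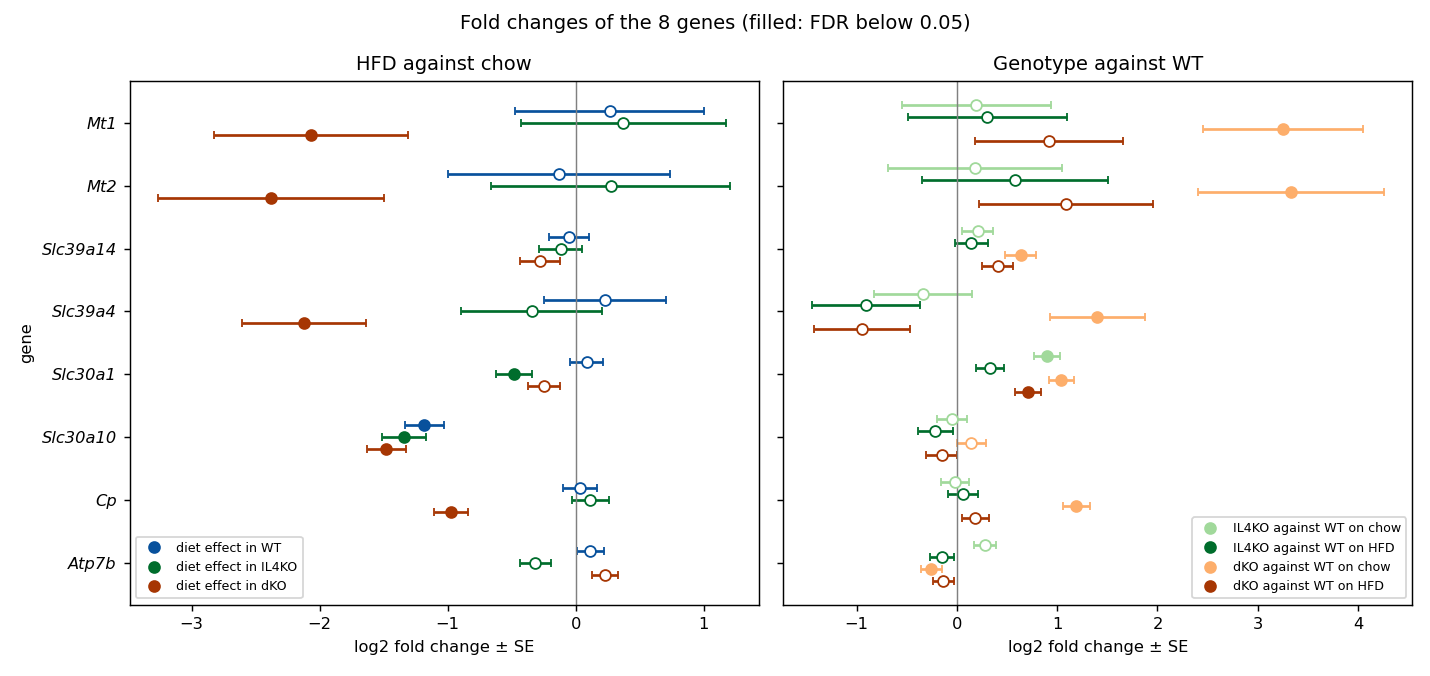
Log2 fold changes ± SE of the 8 genes for HFD against chow in each genotype (left) and for each knockout against WT on each diet (right); filled points have FDR below 0.05. Slc30a10 lies below -1 for all 3 genotypes on the left, while Mt1 and Mt2 lie beyond 3 for dKO against WT on chow on the right, with the widest errors.

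Cp, the ceruloplasmin gene, was higher in dKO than in the other genotypes on chow and fell with the diet in dKO. Its spread within groups (SD of log2 CPM 0.186) was near the median of tested genes. It was at 4001, 3161, 3950.5 and 3519 CPM in dKO_chow, against 1481 to 1691 CPM in WT_chow and 1491 to 1753 CPM in IL4KO_chow. All dKO_chow libraries lay above all others of the study. The log2 fold change was 1.19 against WT_chow (SE 0.137, FDR 1.38e-06), 2.28-fold, and 1.21 against IL4KO_chow (SE 0.137, FDR 1.2e-06). On HFD the dKO libraries held 1568, 1538, 1759 and 2579 CPM, WT libraries 1568 to 1703 CPM and IL4KO libraries 1439, 1888 and 1798 CPM. dKO_HFD replicates 1 to 3 lay within the range of the other HFD groups and replicate 4 above it.

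The diet effect on Cp was -0.98 in dKO (SE 0.136, FDR 1.82e-05), 0.03 in WT (SE 0.135, FDR 0.901) and 0.11 in IL4KO (SE 0.145, FDR 0.677). Tested directly, the dKO diet effect was lower than that in WT by 1.01 (log2 difference -1.01, SE 0.191, FDR 0.00189) and lower than that in IL4KO by 1.09 (log2 difference -1.09, SE 0.198, FDR 0.00125). In the second of these interactions 2 members were called, 1 higher and 1 lower, with 24.4% of tested genes called, 12.7% higher and 11.7% lower. All settings that were run kept the 5 calls of Cp. Mean levels were 3658 ± 396 CPM in dKO_chow, 1861 ± 488 in dKO_HFD and 1581 to 1708 CPM in the other groups, which overlapped each other and dKO_HFD. Its nearest genes were Pbxip1 (0.14), Ptpn1 (0.14), which encodes a tyrosine phosphatase, and Flot1 (0.15), which encodes flotillin 1.

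Atp7b, the copper ATPase gene, stayed between -0.53 and 0.28 on the log2 scale in the 9 pairs of groups. It was at 18.4, 20.0, 15.0 and 14.01 CPM in dKO_chow, 22.6, 21.9, 18.9 and 17.3 CPM in WT_chow and 22.6, 23.8, 26.3 and 25.5 CPM in IL4KO_chow. The dKO_chow libraries overlapped WT_chow and lay below IL4KO_chow. It was lower in dKO than in IL4KO by 0.53 (log2 fold change -0.53, SE 0.104, FDR 0.000304), and the difference from WT of -0.25 (SE 0.104, FDR 0.0488) was lost in 9 of 18 alternative settings, with FDR up to 0.202. On HFD the levels were 20.7, 19.1, 18.9 and 20.9 CPM in dKO, 23.7, 20.2, 21.3 and 21.97 CPM in WT and 20.2, 21.1 and 17.5 CPM in IL4KO. All 3 groups overlapped, and no pair passed. The diet effects in dKO (0.23, FDR 0.0752) and IL4KO (-0.32, FDR 0.0952) had opposite signs and did not pass, and their difference did (0.55, SE 0.156, FDR 0.015). The means ran from 24.5 ± 1.66 CPM in IL4KO_chow through WT_HFD (21.8 ± 1.46), WT_chow (20.2 ± 2.48), dKO_HFD (19.9 ± 1.04) and IL4KO_HFD (19.6 ± 1.86, n = 3) to dKO_chow (16.8 ± 2.81), with overlap between all neighbours. The nearest genes were Arsk (0.12), Sh3bp5 (0.12) and Tbcel (0.12). A gene without any change would lie 0.16 from Atp7b by this measure, so these are little nearer than that.

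None of the 8 was called in the difference between the diet effects of IL4KO and WT, where edgeR called 0.0465% of tested genes. Of the 8, 2 (Slc30a1 and Atp7b) had an unadjusted p under 0.05 there, DESeq2 and limma-voom called 0, and Slc30a1 was called in 1 setting, with dKO_HFD replicate 4 and IL4KO_HFD replicate 3 both left out (-0.76, FDR 0.0418). Mt1 and Mt2 did not pass in the difference between dKO and WT (-2.33, SE 1.05, FDR 0.11 and -2.25, SE 1.22, FDR 0.185), and the call depended on the setting. They passed with limma-voom (Mt1 -3.61, FDR 0.0279, Mt2 -3.89, FDR 0.0394), with the deposited log2 values (Mt1 -3.63, FDR 0.026, Mt2 -3.85, FDR 0.0408), without dKO_HFD replicate 4 (Mt1 -3.24, FDR 0.021, Mt2 -3.24, FDR 0.0467) and without WT_chow replicate 1 (Mt1 -3.50, FDR 0.0166, Mt2 -3.60, FDR 0.0326). In the difference between dKO and IL4KO they did not pass either (Mt1 -2.44, FDR 0.108, Mt2 -2.65, FDR 0.134), and passed without dKO_HFD replicate 4 (FDR 0.0205 and 0.0326).

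Per kilobase of the GENCODE transcript numbered 201, the only scale on which genes are set side by side here, WT_chow means were 392 CPM per kilobase for Cp, 152 for Slc39a14, 130.3 for Mt1, 103.5 for Mt2, 19.4 for Slc39a4, 12.7 for Slc30a10, 6.22 for Slc30a1 and 3.10 for Atp7b. In dKO_chow the means were 1240 for Mt1, 1043 for Mt2 and 894 for Cp, and the library ranges of these 3 genes overlapped. Which transcripts the authors counted is not stated by the labels, so these levels rest on an assumed length.

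CPM of 6 members lay above WT_chow without overlap in dKO_chow, namely Mt1, Mt2, Slc39a14, Slc39a4, Slc30a1 and Cp, where 23.7% of tested genes did so. Against IL4KO_chow it was 5 of them, without Slc30a1, with 23.4% of tested genes. With the diet in dKO, 3 members fell without overlap (Slc39a4, Slc30a10 and Cp), as did 17.3% of tested genes.

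In dKO against WT on chow, the other listed genes of zinc and copper handling were called at about the share of all tested genes. Of 46 such genes 41 were tested, and in dKO against WT on chow 7 were higher and 12 lower, with a median log2 fold change of -0.06 beside 0.02 for all genes. That is 19 of 41 called, where 46.3% of all tested genes were called, with 2 higher and 3 lower among 17 zinc transporters and 4 higher and 9 lower among 22 copper genes. The highest were the metalloreductase genes Steap4 (841 ± 217 against 233 ± 41.6 CPM, log2 fold change 1.85, SE 0.277, FDR 3.57e-05) and Steap2 (25.2 against 10.9 CPM, FDR 0.000682), which supply reduced copper and iron for uptake, followed by the extracellular superoxide dismutase gene Sod3 (46.0 against 31.9 CPM, FDR 0.0227) and the zinc importer gene Slc39a1 (104 against 77.8 CPM, FDR 0.00194). Sco2, which delivers copper to cytochrome c oxidase, had the largest drop among genes with a mean of 2 CPM or more, to 29.0 ± 1.64 against 106 ± 18.4 CPM (log2 fold change -1.87, SE 0.121, FDR 4.06e-10). Lower as well were Sod1, the copper and zinc superoxide dismutase gene (126 against 217 CPM, FDR 6.71e-07), and the cytochrome oxidase copper chaperone genes Cox17 (16.1 against 21.7 CPM, FDR 0.0176) and Sco1 (10.9 against 14.6 CPM, FDR 0.000739).

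Against IL4KO on chow, dKO had 7 of these 41 genes higher and 12 lower (45.2% of all tested genes called). Steap4, Steap2 and Sod3 were higher, as was the copper transporter gene Slc31a2 (10.2 against 6.81 CPM, FDR 0.00187). Sco2 (29.0 against 85.7 CPM, FDR 2.01e-08), Sod1, Sco1 and F5, the gene of coagulation factor V (437 against 621 CPM, FDR 0.000349), were lower. In the diet effect in dKO 9 rose and 5 fell (40% of all tested genes called). F5, Slc39a9, Cox11 and Sco2 (29.0 to 37.5 CPM, FDR 0.0164) rose, and Steap4 (841 to 359 CPM, FDR 0.00156), Steap2 (25.2 to 11.4 CPM, FDR 0.000994), Slc39a6 and Slc31a2 fell.

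The diet effect in WT had 5 of the 41 higher and 6 lower (19.5% of all tested genes called). Slc39a5, which encodes the importer ZIP5 of the basolateral membrane, rose from 1.97 to 7.23 CPM (log2 fold change 1.85, SE 0.44, FDR 0.00577), and Loxl2, a copper-dependent enzyme gene of collagen crosslinking, rose from 3.95 to 12.4 CPM (FDR 0.00285). Heph, the hephaestin gene, and Sod3 also rose, and Sco2 (106 to 63.2 CPM, FDR 0.000216), Slc39a6, Sod1 and Slc39a7 fell. In IL4KO, where 9.08% of all tested genes were called, the diet raised 2, Slc39a5 (1.20 to 7.78 CPM, FDR 0.00306) and Sod3, and lowered 1, Mtf1 (25.4 to 20.3 CPM, FDR 0.0446), the gene of the zinc sensor itself.

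Slc39a5 stood out across genotypes. Libraries held 0 to 4 counts in dKO_chow (0 to 0.119 CPM) and 17 to 31 counts in WT_chow (1.60 to 2.53 CPM), a difference that was called lower (FDR 3.93e-05) and was singled out after its values were seen, since the gene is just under the level of 2 CPM set for naming. On HFD it was at 1.80 CPM in dKO, below 7.23 CPM in WT (FDR 0.00227) and 7.78 CPM in IL4KO (FDR 0.0188). On the log2 scale the diet effect was higher in dKO than in WT by 2.59 (SE 0.881, FDR 0.0366). The dKO side of this difference starts from the 0 to 4 counts of dKO_chow. Mean CPM went from 0.065 to 1.80 in dKO and from 1.97 to 7.23 in WT.

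Between IL4KO and WT on chow 4 of the 41 were called, beside 9.61% of all tested genes: 1 was higher, Slc30a4 (19.1 against 13.5 CPM, FDR 0.00556), and 3 were lower, Slc39a7, Cutal and Sod1. On HFD 1 was lower, Cutal (43.3 against 61.2 CPM, FDR 0.00763), beside 3.02% of all tested genes called. In dKO against WT on HFD 2 were higher, Mtf1 (24.3 against 19.1 CPM, FDR 0.0066) and Cox11, and 7 were lower, led by Slc39a5, Loxl2, Sco2 (37.5 against 63.2 CPM, FDR 0.000148) and Sod3, beside 24.5% of all tested genes called. In dKO against IL4KO on HFD 4 were lower, Slc39a5, Sco2, Atox1 and Sod1, beside 2.51% of all tested genes called. The dKO and WT diet effects differed at 10 of the 41, beside 25.2% of all tested genes, including Sco2 (1.12, FDR 0.000626), Mtf1 (0.45, FDR 0.0129), Steap4 (-1.26, FDR 0.0227) and Sod3 (-1.07, FDR 0.00715).

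**Figure D4:**
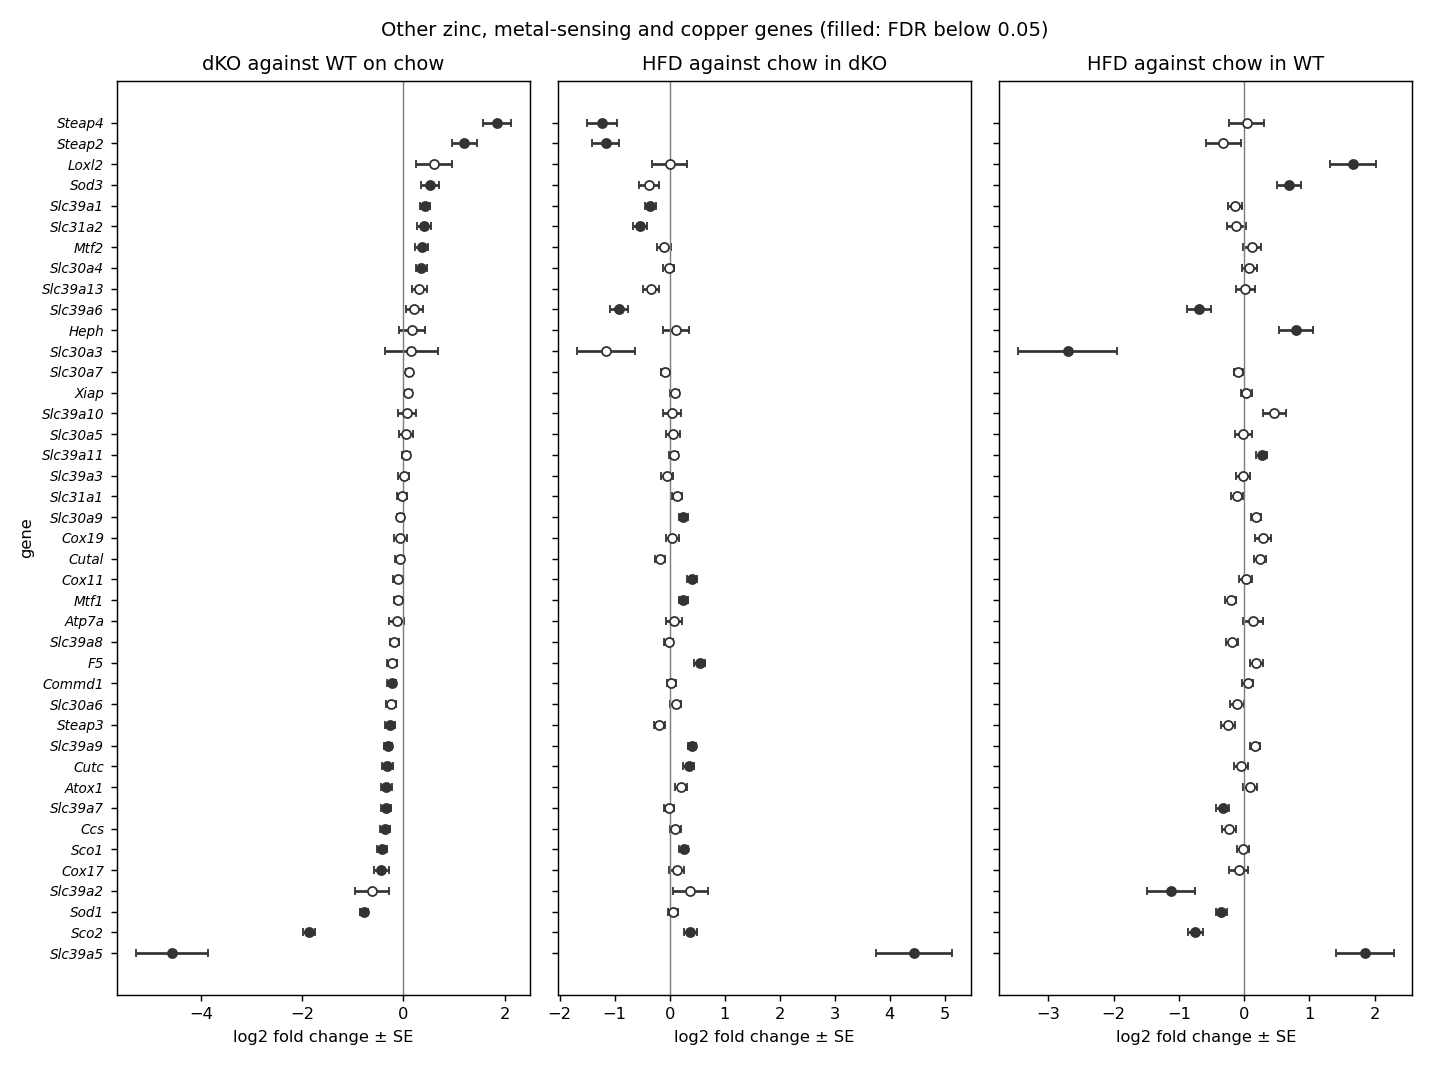
Log2 fold changes ± SE of the 41 tested other zinc, metal-sensing and copper genes in dKO against WT on chow, in the diet effect in dKO and in the diet effect in WT, in one gene order; filled points have FDR below 0.05. Steap4 and Steap2 lie at the upper end and Sco2 and Slc39a5 at the lower end in dKO against WT on chow, and the signs of Steap4, Steap2, Sco2 and Slc39a5 are opposite in the diet effect in dKO, which shares the dKO_chow libraries.

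Acute phase genes are those whose hepatocyte expression changes in inflammation. Of 20 listed, 19 were higher and 1 lower in dKO against WT on chow (median log2 fold change 1.86), where 24.4% of all tested genes were higher. In dKO against WT on HFD 4 were higher and 1 lower (24.5% of all tested genes called, 12.9% higher), and neither Cp, Mt1 nor Mt2 was called there. Of the 20, 0 rose and 16 fell in the diet effect in dKO (median -1.299), where 20.5% of all tested genes fell. The largest in dKO against WT on chow were Saa2 (5181 against 98.2 CPM, FDR 0.00712), Orm2 (1705 against 32.3 CPM, FDR 0.00101) and Lcn2 (1169 against 31.4 CPM, FDR 0.0015). Steap4 belongs to this list and to the copper list. In the diet effect in WT 1 rose and 3 fell (19.5% of all tested genes called), and in that in IL4KO 1 rose (9.08% called).

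The list of glucocorticoid-responsive genes, of which 12 were tested, includes Mt1, Mt2, Lcn2 of the acute phase list, and Tat and Pck1, which are also among the hepatocyte markers. In dKO against WT on chow 3 of the 12 were higher (Mt1, Mt2 and Lcn2) and 6 lower, Tat and Pck1 among them, beside 24.4% higher and 21.9% lower of all tested genes, and in dKO against IL4KO on chow 3 were higher and 7 lower, beside 23% higher and 22.2% lower of all tested genes. In the second, the receptor target genes Zbtb16 (23.4 against 92.0 CPM, FDR 0.000237), Dusp1 (28.8 against 72.5 CPM, FDR 0.0391) and Klf9 (66.2 against 143 CPM, FDR 5.89e-05) were lower. In the diet effect in dKO 6 rose and 3 fell, where 40% of all tested genes were called and 20.5% fell.

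Markers of other cells also moved with these groups. In dKO against WT on chow, 10 of 10 neutrophil markers were higher (sum 140 to 466 CPM against 2.72 to 29.2 CPM), as were 9 of 10 Kupffer cell markers (817 to 1054 against 312 to 567 CPM), 7 of 8 of monocyte-derived macrophages (635 to 1027 against 79.3 to 125 CPM) and 8 of 8 tested cholangiocyte markers (467 to 847 against 45.4 to 53.0 CPM). Of all tested genes, 24.4% were higher and 21.9% lower in that comparison. Spp1 is on both the macrophage and the cholangiocyte list and reached 776 CPM, while no other cholangiocyte marker passed 23.5 CPM in any library. The sums of these lists are therefore not separate. Hepatocyte markers were lower at 8 of 10 (87801 to 98508 against 130523 to 133816 CPM). Of the other lists in that comparison, 6 of 8 tested T and NK cell markers and 1 of 2 tested B and plasma cell markers were higher, stellate cell markers were higher at 3 and lower at 1 of 9, endothelial markers higher at 1 and lower at 3 of 8, erythroid markers lower at 1 of 5, and 0 of 1 tested adipocyte marker was called. In the diet effect in dKO 10 of 10 neutrophil, 10 of 10 Kupffer cell and 8 of 8 cholangiocyte markers fell and 7 of 10 hepatocyte markers rose (40% of all tested genes called, 20.5% lower). Markers of monocyte-derived macrophages fell at 6 of 8, of T and NK cells at 6 of 8 and of B and plasma cells at 2 of 2. Stellate cell markers rose at 1 and fell at 1 of 9. Endothelial markers rose at 3 of 8, erythroid at 1 of 5 and adipocyte at 1 of 1, and 0 of these fell. None of the neutrophil, Kupffer cell, cholangiocyte and hepatocyte markers was at 0 in all libraries of a dKO group. The adipocyte markers Adipoq, Retn and Plin1 were at 0 in all dKO_chow libraries, and Plin1 in all dKO_HFD libraries. In IL4KO_HFD, where Slc30a1 and Atp7b were compared with chow, the neutrophil markers Elane and Mpo were at 0 in all libraries, and hepatocyte markers summed to 94294 CPM in replicate 2 against 133410 and 141976 CPM in the others. The part of these cell types in the levels of the 8 genes was not tested.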

How the data were processed

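Liver RNA of 23 libraries in 6 groups was read as the estimated counts per gene that the authors deposited, rounded here to whole numbers (88.5% to 94.3% of the values of a library were whole). The log2 expression values that the authors deposited for 14078 genes served as an alternative. Per the submitters' processing notes, bcl2fastq 2.16, TopHat2 2.0.8, Partek and the genome mm10 were used. Annotation, counting rule and strand use were not given in the sources used here, so reads of overlapping or antisense genes cannot be told apart.

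Counts were scaled by TMM, filtered by edgeR's filterByExpr by group and fitted in edgeR 4.0.16 (R 4.3.3) with robust quasi-likelihood over 6 group means with 17 residual degrees of freedom. The 12 comparisons (9 pairs of groups and 3 differences between diet effects) were tested two-sided with Benjamini-Hochberg adjustment over 12891 genes, and FDR below 0.05 was called. The biological coefficient of variation was 0.156. SE is the absolute log2 fold change divided by the square root of the F value of its edgeR test. The 95% intervals take 17 degrees of freedom, which can differ from those of the robust test. A prior count of 2 entered log2 CPM. Alternatives used DESeq2 1.42.0, limma 3.58.1, other scaling, filters and depth, and left out libraries. The fit was tested on simulated data. Totals per library set the counting precision.

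The members and gene lists were chosen with earlier results of these data known. Besides the 8 members, the text names up to 4 called genes per direction and comparison from the zinc, metal-sensing and copper lists, by size of change among those whose mean reached 2 CPM in a compared group, leading genes of the acute phase and glucocorticoid lists, and the 3 genes nearest to each member by mean absolute difference in centred log2 CPM over 23 libraries. Genes with predicted or clone-type names (such as Gm and Rik) were left out of the search for nearest genes. Replicate numbers follow accession order and pair nothing.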

Additional observations from a re-analysis of the deposited data

Results flagged for a closer look

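Slc39a4 in dKO_HFD replicate 4 (55.4 CPM) lay far from the other libraries of its group (11.1 to 17.3 CPM): its gap to the nearest was 0.861 of the range of the group, above Dixon's 95% critical value for 4 libraries. Of 40 sets of libraries checked, 1 held such a sample, and chance alone gives about 1 in 20. Neutrophil markers summed to 63.5 CPM in that library, and their part in the value was not tested.

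The diet effect differed between genotypes for 3 members by edgeR's test of the difference itself. For Slc39a4 it was lower in dKO than in WT (-2.35 on the log2 scale, FDR 0.0199), and the difference between dKO and IL4KO did not pass (-1.78, FDR 0.0803). Cp was lower in dKO than in WT (-1.01, FDR 0.00189) and than in IL4KO (-1.09, FDR 0.00125). For Atp7b it was higher in dKO than in IL4KO (0.55, FDR 0.015).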

How the results depend on the processing

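Of 27 called results for single genes, 21 kept their call under every setting run, and no called result changed sign. Of 69 results that were not called, 14 were called under some setting. Fitting only the groups compared left 1 called member in the diet effect in IL4KO (2 in the report) and 3 in that in dKO (5). In dKO against WT on HFD 2 members were called with DESeq2, limma-voom, counts thinned to the smallest library, and dKO_HFD replicate 4 and IL4KO_HFD replicate 3 both left out (1 in the report). That pair was taken from earlier results of these data, and IL4KO_HFD replicate 2, which stood apart in its markers, was left out on its own. Leaving out both also gave 7 in the diet effect in dKO (5 in the report), 1 in dKO against IL4KO on HFD and 1 in the difference between the diet effects of IL4KO and WT (0 in the report), 4 in that of dKO and WT and 5 in that of dKO and IL4KO (2 each). For dKO and WT, limma-voom and the deposited log2 values also gave 4. The cause was not tested. Leaving out 1 library at a time gave 1 to 2 in the diet effect in IL4KO, 3 to 7 in that in dKO, 0 to 1 in IL4KO against WT on HFD, 1 to 2 in dKO against WT on HFD, 0 to 1 in dKO against IL4KO on HFD, and 2 to 5 in the differences of dKO from WT and from IL4KO. No paired analysis was possible because the labels give no replicate numbers, and those used here follow accession order. The spread of Mt1, Mt2 and Slc39a4 within groups of 3 or 4 limits what can be called for them.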
